A study of Mus musculus with 143 samples.

Results

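The regions described here are 4376 sites on chromosomes 1 to 19 of the mouse genome that carried a peak of RNA polymerase II (Pol II) in growing oocytes of 20-day-old (p20) control mice and none in fully grown oocytes of adult controls. They were selected on measured values. A peak in the list of p20 control 1 was kept when it overlapped, by 1 bp or more, a peak of p20 control 2 and one of p20 control 3, and overlapped no peak of adult controls 1, 2 or 3. Of the 71337 autosomal peaks of p20 control 1, 11944 (16.7%) were present in all 3 p20 controls. The 4376 regions, 6.13% of the whole list, are called adult-absent regions below, and the other 7568 of the 11944, which overlapped a peak of at least 1 adult control, are called shared peaks.

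The peaks come from CUT&Tag, in which an antibody directs a transposase to cut the chromatin around its target, on pools of mouse oocytes. The 9 lists labelled pols2s5, read here as Pol II from the title of the series, are from p20 controls, adult controls at the germinal vesicle (GV) stage and adult GV oocytes labelled dis3cKO, a conditional knockout of Dis3, with 3 lists in each group. A further 12 lists mapped trimethylation of histone H3 at lysine 27 (H3K27me3), 3 each from p20 controls, p20 oocytes labelled dcKO, adult GV controls and adult GV Dis3 cKO oocytes. Single-oocyte RNA was measured in rRNA-depleted libraries of p20 control, p20 dcKO, adult GV control and adult GV Dis3 cKO oocytes, with 8 libraries per group, and in polyA libraries of adult GV oocytes from 8 control and 15 Dis3 cKO samples. Further groups took part in the statistical fits alone. They were rRNA-depleted p20 oocytes labelled dis3cKO and exo10cKO, with 8 libraries each, and polyA samples labelled GV3h, after 3 hours of culture, and MII. The GV3h and MII samples were 8 control and 16 Dis3 cKO each. Levels in these groups are not reported here. The mutant mice were made with CRISPR/Cas9 and the oocytes were dissected from their ovaries; the Cre driver, the antibodies and the number of oocytes in a pool are not given in the sources used here. The labels do not say whether replicates came from separate animals, so the p-values measure the spread between samples, which may be partly technical.

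Pol II is the enzyme that transcribes protein-coding genes and many noncoding RNAs. Growing mouse oocytes transcribe actively to build the store of maternal RNA, and transcription falls silent when the oocyte reaches full size. The RNA exosome is a complex that degrades nuclear RNA, with DIS3 and EXOSC10 as its nucleases in the nucleus. H3K27me3 is laid down by Polycomb repressive complex 2 and marks silent chromatin, in oocytes often over broad intergenic domains.

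Bases are shown for promoters that an adult-absent region covered in full. The 40 transcription starts of 37 genes whose 250 upstream bases lay entirely inside such a region had a median GC content of 56.6%, against 52.4% over all 31396 autosomal starts of RefSeq GRCm38.p6. Searched on both strands, the CCAAT box (CCAAT) was in 37.5% of these 40 starts against 33.7% of all starts. The GC box (GGGCGG) was in 42.5% against 33.0%, the ETS core (CCGGAAG) in 12.5% against 7.01%, and the TATA box (TATAAA) in 2.5% against 12.4%. At 40 starts, 1 start is 2.5%. The following sequences, 5′ to 3′ on the strand of the gene and from RefSeq, are the 250 bases before the start of Srrt, the region with the highest signal at a protein-coding start, of Casq1, a region that was also marked by H3K27me3, of a start inside the Wdtc1 gene that is rich in CpG, and of Brat1, a start with several boxes. Capitals mark any of the motifs on either strand.
Srrt: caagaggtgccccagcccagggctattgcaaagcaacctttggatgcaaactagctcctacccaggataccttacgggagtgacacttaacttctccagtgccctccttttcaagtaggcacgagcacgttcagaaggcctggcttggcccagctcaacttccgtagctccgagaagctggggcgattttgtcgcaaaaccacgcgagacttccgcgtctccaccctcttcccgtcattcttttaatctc
Casq1: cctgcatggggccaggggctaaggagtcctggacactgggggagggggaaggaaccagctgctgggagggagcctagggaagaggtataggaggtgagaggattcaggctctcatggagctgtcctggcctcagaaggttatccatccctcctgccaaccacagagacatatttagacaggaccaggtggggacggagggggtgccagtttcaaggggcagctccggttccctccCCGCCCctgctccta
Wdtc1: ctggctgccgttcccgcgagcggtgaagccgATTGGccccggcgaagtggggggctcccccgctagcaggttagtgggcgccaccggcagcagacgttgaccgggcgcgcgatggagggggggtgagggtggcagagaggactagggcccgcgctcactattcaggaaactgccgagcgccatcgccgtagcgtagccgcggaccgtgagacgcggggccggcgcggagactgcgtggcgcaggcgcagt
Brat1: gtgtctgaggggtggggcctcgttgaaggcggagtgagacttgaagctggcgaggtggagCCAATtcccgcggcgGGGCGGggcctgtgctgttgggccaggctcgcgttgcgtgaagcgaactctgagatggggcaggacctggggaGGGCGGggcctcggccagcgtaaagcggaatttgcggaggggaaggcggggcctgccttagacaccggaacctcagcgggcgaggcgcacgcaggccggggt
The Srrt bases lie at chr5:137307675-137307924 on the minus strand and hold none of the motifs. Those of Casq1 lie at chr1:172219896-172220145 on the minus strand and hold a GC box. Those of Wdtc1 are at chr4:133339316-133339565 on the minus strand, with a CCAAT box and 33 CpG sites in the 250 bases. Those of Brat1 are at chr5:140704816-140705065 on the plus strand, with a CCAAT box and GC boxes. A match of these letters is a description of the sequence and not a binding site.

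The lists differed in how weak a peak they held, and this touches every count of overlaps. The lowest total signal of a listed peak, the authors' sum of signal over the peak, was 3002 in adult control 1, 1869 in adult control 2, 1928 in adult control 3 and 1890 in Dis3 cKO 2. It was 102 or 103 in the 3 p20 controls and in Dis3 cKO 1 and 3. Autosomal peaks numbered 19166, 34825 and 29870 in the adult controls, 71337, 79302 and 77623 in the p20 controls, and 84842, 29298 and 117182 in Dis3 cKO 1, 2 and 3. In p20 control 1, 1278 (29.2%) of the adult-absent regions had a total signal under 3002, against 12.6% of the shared peaks. With all 9 lists limited to peaks of 3002 or more, 2034 regions met the rule and 97.4% of them were regions of the full set. Among the H3K27me3 lists, adult control 2 stood apart: 11.9% of its 202628 peaks were on the X chromosome, against 3.21% and 3.76% in the other adult controls.

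The adult-absent regions were moderate in height. Their total signal in p20 control 1 started at 120 and had a median of 4642, and their width started at 63 bp and had a median of 656 bp. The shared peaks had a median total signal of 7710 and a median width of 896 bp. These values belong to the list that chose the regions and are given as a description. At the edge of the rule, the region with the smallest overlap in p20 controls 2 and 3 had 1 bp of overlap and lay in Fgd6 at chr10:94105870-94106660, with a total signal of 6330. The nearest peak on the other side of the rule was at chr14:7704630-7705234, outside genes, with a total signal of 2565 and 1 bp of overlap with a peak of adult control 3. An adult control peak lay within 500 bp of 1244 of the regions, and the median distance to the nearest one was 1252.5 bp.

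The regions lay mostly inside genes and toward their ends. Leaving out chromosome 18, for which no gene starts were at hand, 155 of 4202 regions (3.69%) lay within 1 kb of a gene start, 3182 (75.7%) elsewhere in a gene and 865 (20.6%) outside genes. The same classes take up 2.24%, 46.8% and 50.9% of the chromosomes. The whole list of p20 control 1 had 3.69%, 72.1% and 24.2% of its peaks in the 3 classes, so the regions were close to the list they were drawn from. Of 2538 regions inside a single gene, 41.3% lay in the last 25% of its length and 14.1% in the first 25%. The shared peaks had 42.9% and 11.2% there.

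**Figure D1:**
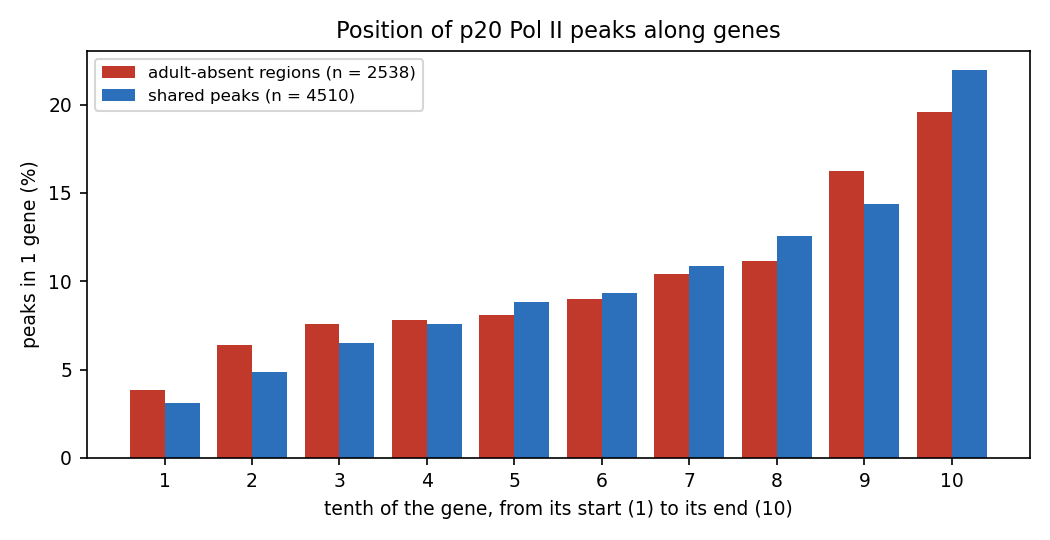
Percentage of peaks, among those inside exactly 1 gene, in each 10% of the gene's length from its start to its end, for adult-absent regions (red) and shared peaks (blue). Both sets climb toward the gene end, and the last 10% of the length holds 19.6% of the adult-absent regions.

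Many regions had another close by. Another adult-absent region lay within 10 kb of 1770 of them (40.4%), and a shared peak within 10 kb of 2080 (47.5%). Of the shared peaks, 77.6% had another shared peak within 10 kb. They fell in 1893 protein-coding genes, of which 1214 held exactly 1, 382 held 2 and 297 held 3 or more. A shared peak lay in 951 of these genes and none in the other 942. The median span of the 1893 genes was 49.3 kb, against 17.5 kb over all autosomal protein-coding genes.

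The strongest regions at protein-coding starts belonged to genes with varied roles. That of Srrt, the ARS2 protein that links the cap-binding complex of new transcripts to RNA decay and processing, had a total signal of 20029 at chr5:137307663-137309569 and was in the list of Dis3 cKO 1 alone among the knockouts. That of Zfpm1, a cofactor of GATA factors, had 19661 and was in all 3 Dis3 cKO lists, as was that of Pisd, the mitochondrial enzyme that makes phosphatidylethanolamine, with 18278. That of Il11, a cytokine gene, had 18086, was in Dis3 cKO 3, and was covered in 12 of 12 H3K27me3 lists. That of Casq1, the calcium buffer of the sarcoplasmic reticulum, had 16576, was in Dis3 cKO 1 and 3, and was covered in 10 of 12 H3K27me3 lists. Il11 and Casq1 were the only 2 of the 10 strongest starts in more than 1 H3K27me3 list.

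The start regions shared by Limd2 and Gm10840, with a total signal of 16507, and of Dop1b, with 15766, were in no Dis3 cKO list. The Dop1b region, at chr16:93730804-93731800, was at a start inside the gene, which spans chr16:93711907-93810588. That of Rhof, a small GTPase gene, had 16102 and was in 2, and those of Wdtc1, with 15030, and Mfsd10, with 14784, were in 1 list each. Away from starts the highest signals were higher still. The highest total signal of any region was 54235. Among the highest were regions in Dtx2 (39516), Prpf40b (31938) and Rbpms (30209) and an intergenic one on chromosome 19 (29449). Those in Dtx2 and Rbpms were in all 3 Dis3 cKO lists, that in Prpf40b in 2 and the intergenic one in 1. The widest of all regions was 4363 bp. Among the widest regions were those in Arid4a (3790 bp), over Gm7592 and Gm7281 (3708 bp), in Zc3h18 (3184 bp) and outside genes on chromosome 4 (3117 bp).

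Over all autosomal protein-coding genes, 9.16% held a region, and 0.69% of those with a start at hand had one there, which are the shares to read the gene lists against. None of the 11 zona pellucida and oocyte-secreted genes, the 24 developmental targets of Polycomb or the 10 genes imprinted through H3K27me3 held a region anywhere. Of the 12 oocyte transcription factors, Tbpl2 and Obox2 held one, and of the 9 genes of the subcortical maternal complex, Nlrp5, Nlrp2 and Nlrp4f did. In the last list 8 of 9 genes held a shared peak, as did 951 genes with regions and 1073 without among all 20665. Of 18 Polycomb genes, Ezh1, Jarid2 and Cbx7 held regions, with 8 in Cbx7, a chromodomain subunit of PRC1. Of 24 genes of Pol II transcription, Polr2j, a small subunit of the enzyme, had one at its start, and Supt6, Nelfa, Nelfb and Cdk12 held regions away from the start. Of 17 exosome genes, Exosc10, Dis3l and Zcchc8, a subunit of the complex that brings nuclear RNA to the exosome, held regions. Of 81 cytosolic ribosomal protein genes, Rps25 had one at its start and Rps15a one inside.

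In Dis3 cKO oocytes of adults, part of the regions was listed as occupied. Dis3 cKO 1 held 1968 of the 4376 (45.0%), Dis3 cKO 2 held 876 (20.02%) and Dis3 cKO 3 held 2266 (51.8%), a mean of 38.9% ± 16.7 (SD, n = 3 lists). The shares were 26.97%, 10.5% and 31.8% where 50% of the region had to be covered, 27.4%, 11.3% and 32.8% where the centre of its maximum did, and 24.8%, 20.02% and 24.8% with the 3 knockout lists at equal length. Over all 71337 peaks of p20 control 1 the same lists held 29.2%, 13.4% and 33.9%. Dis3 cKO 2, with the shortest list and the higher floor, was the low one in each set. Counted per region, 1164 (26.6%) were in no Dis3 cKO list, 1680 (38.4%) in 1, 1166 (26.6%) in 2 and 366 (8.36%) in all 3. The shared peaks were in all 3 lists in 30.1% of cases and in none in 10.5%. Of all 71337 peaks of p20 control 1, 5.64% were in all 3 lists and 49.8% in none. By both counts the regions lay between the shared peaks and the whole list.

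The regions were occupied less often than the shared peaks in each of the 3 lists. The shares of the shared peaks were 68.5%, 42.9% and 72.8%, and the difference was −22.5 points ± 1.34 (SD, n = 3 lists), with a 2-sided exact sign-flip permutation p of 0.25, the smallest that 3 lists allow. Both sets were formed by overlap with adult control peaks, a choice that itself favours the shared peaks in other adult lists. All 3 lists also scored the same peaks. The p covers the spread between lists only and cannot decide whether the sets differ beyond that choice. Regions of higher signal were found more often: 57.0%, 27.8% and 61.4% of the 1094 with the highest total signal, at 7455 or more, against 40.1%, 12.8% and 46.6% of the 1094 lowest, at 2590 or less. By position, the mean shares were 39.4% at starts, 39.2% elsewhere in genes and 37.3% outside genes.

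A control list that took no part in the choice gives the level to set this against. Peaks were chosen again without 1 adult control at a time, and the share found in the control left out was 15.7% for control 1 (of 5191 peaks), 29.0% for control 2 (of 6164) and 20.9% for control 3 (of 5533), a mean of 21.9% ± 6.71 (SD, n = 3). The same peaks were found in Dis3 cKO 1 in 46.8 to 49.3%, in Dis3 cKO 2 in 21.98 to 23.5% and in Dis3 cKO 3 in 53.9 to 54.98%. Dis3 cKO 1 and 3 were above every left-out control, and Dis3 cKO 2 lay within the range of the controls. Peaks chosen with 2 controls are not independent between the 3 rounds, so no p is given.

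The excess was smaller with lists made more alike. With the common floor of 3002 in all lists, the left-out controls held 19.8, 33.5 and 24.0%, and the Dis3 cKO lists held means of 44.1%, 27.4% and 41.9%. With the adult control and Dis3 cKO lists limited to their 19166 strongest peaks, the left-out controls held 17.8, 20.4 and 16.4% against 23.9%, 18.1% and 24.3%. The mean excess of the knockout over the left-out control was 19.8 points as deposited, 12.02 with the floor and 3.93 at equal length. Dis3 cKO 1 and 3 stayed above every left-out control in all 3 settings, and Dis3 cKO 2 stayed inside their range.

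**Figure D2:**
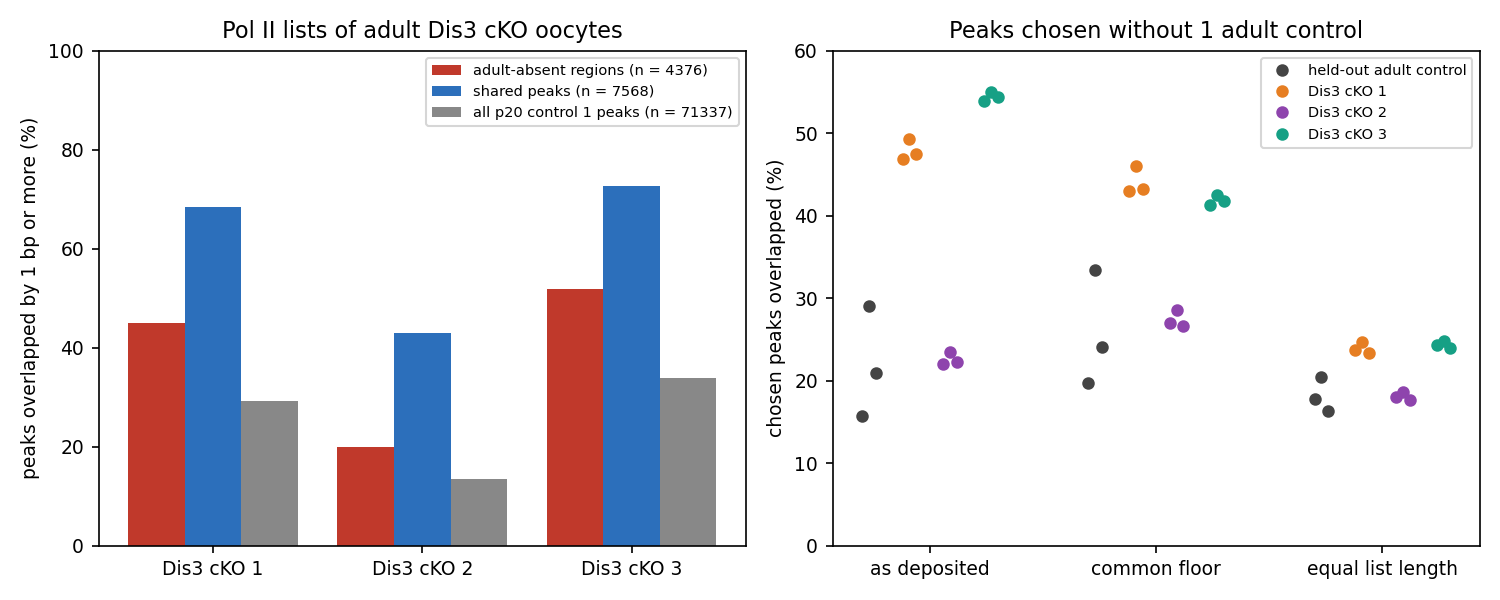
Left, percentage of adult-absent regions (red), shared peaks (blue) and all peaks of p20 control 1 (grey) overlapped by 1 bp or more in each of the 3 Pol II lists of adult Dis3 cKO oocytes. Right, peaks chosen again without 1 adult control, with 3 points per colour for the 3 choices: share found in the control left out (dark grey) and in each Dis3 cKO list, for the deposited lists, with a common floor of total signal, and at equal list length, where the mean excess narrows from 19.8 to 3.93 points.

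Sned1, which encodes a secreted matrix protein, shows the occupied pattern in one gene. It spans chr1:93235796-93301065 and held 11 adult-absent regions beside 14 shared peaks. All 11 were in the list of Dis3 cKO 3, 9 in that of Dis3 cKO 1 and 9 in that of Dis3 cKO 2, and none overlapped an H3K27me3 peak in any of the 12 lists. The strongest lay at chr1:93273564-93275306 with a total signal of 28645. Sned1 is among the 10 genes outside chromosome 18 that held most regions, a group picked after the values had been seen.

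Myrip, an adaptor between RAB27 vesicles and myosin motors, held the most of these genes, with 18 regions over chr9:120303520-120476101. Of these 9 were in Dis3 cKO 1, 1 in Dis3 cKO 2 and 7 in Dis3 cKO 3, and 7 were in none. Arid5b followed with 15, Arid1b, a subunit of BAF chromatin remodelling complexes, with 14, and Dscam, Shb and Zfp469 with 12 each. Ankrd44 and Prom1 held 11 each. Of the 8 regions in Cbx7, 3 were in all 3 Dis3 cKO lists. Of the 5 in Cdk12, the kinase that phosphorylates elongating Pol II, each was in at least 1 list and 1 was in all 3.

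H3K27me3 was rare at the regions. In p20 controls it covered 5.10%, 4.78% and 4.78% of them, 4.88% ± 0.18 (SD, n = 3 lists), where the 3 lists covered 4.1%, 4.18% and 4.09% of all p20 control 1 peaks. The p20 dcKO shares were 5.64%, 6.99% and 7.70%, 6.78% ± 1.04, beside 5.95%, 7.14% and 7.6% of all peaks. In adult controls they were 3.27%, 10.7% and 3.61%, 5.86% ± 4.19, beside 2.78%, 9.33% and 2.82%. The adult Dis3 cKO shares were 4.78%, 4.39% and 5.14%, 4.77% ± 0.38, beside 4.72%, 4.2% and 4.77%. In each group the share at the regions was near that of the whole list, and the value of 10.7% belonged to the adult control that stood apart.

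No difference in H3K27me3 between groups passed a threshold of 0.05, which 3 lists against 3 cannot reach. The share in p20 dcKO oocytes was 1.897 points above p20 controls, with no overlap of the lists, at a 2-sided exact permutation p of 0.10, the smallest that 3 lists against 3 allow. At equal list length the difference was 0 points. Adult controls minus p20 controls gave 0.98 points (exact permutation p = 1), and −1.44 points without adult control 2 (exact permutation p = 0.1). Adult Dis3 cKO minus adult controls gave −1.09 points (exact permutation p = 1), and 1.33 points without adult control 2 (exact permutation p = 0.1).

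**Figure D3:**
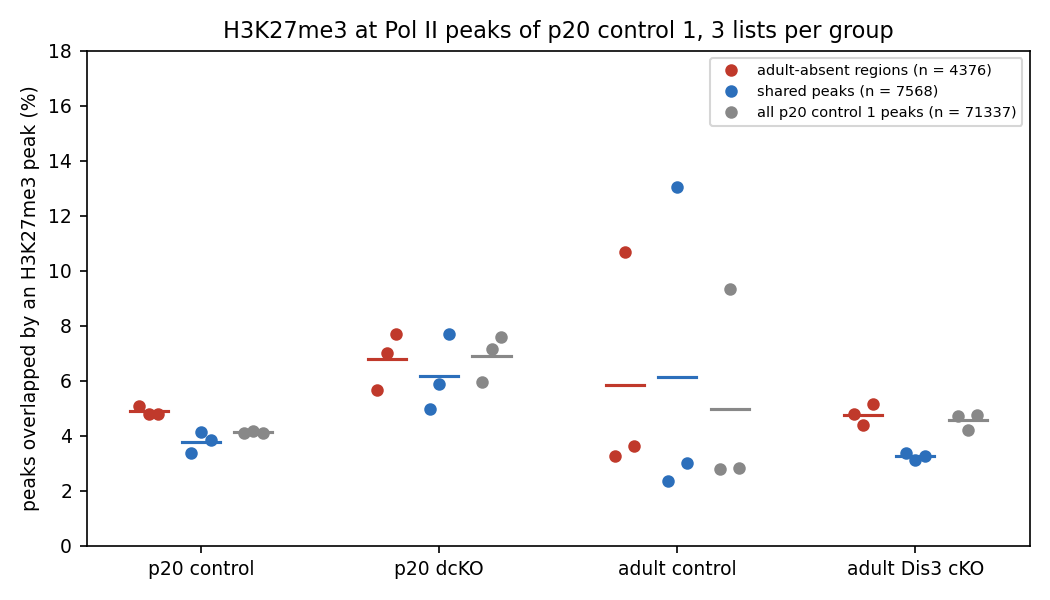
Percentage of adult-absent regions (red), shared peaks (blue) and all peaks of p20 control 1 (grey) overlapped by an H3K27me3 peak, with 1 point per list and a line at the mean of the 3 lists of a group. Most points lie between 2 and 8%, and the adult control list near 10.7% for the adult-absent regions stands apart in all 3 sets.

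The direction against the shared peaks turned with the strength of the peaks. Over all regions the share was higher than over all shared peaks in 10 of 12 H3K27me3 lists. The mean difference was 0.73 points, with a 2-sided exact sign-flip permutation p of 0.042 over 12 lists. With both sets limited to a total signal of 3002 or more, a comparison added after the values were seen, the 3098 regions had a lower share than the 6613 shared peaks in 12 of 12 lists. The mean difference was then −1.13 points (exact sign-flip p = 0.000488, the smallest that 12 lists allow). Over all peaks at equal list length the difference was 0.03 points (exact sign-flip p = 0.94), and leaving out 1 list gave p from 0.00195 to 0.082, so it missed the threshold at equal length and for 10 of the 12 lists left out. With 50% of the region covered it was 1.05 points (exact sign-flip p = 0.000488), and at the centre of the maximum 0.82 points (exact sign-flip p = 0.00146). Against the 1462 peaks shared with all 3 adult controls it was −2.29 points (exact sign-flip p = 0.00146). Every list scored the same regions and the same shared peaks. These p-values therefore cover the spread between lists only and cannot decide whether the 2 sets of regions differ.

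The mark was at few regions and at few shared peaks. In p20 controls 91.4% of the regions and 93.1% of the shared peaks were in none of the 3 lists, and 2.29% and 1.63% in all 3. In adult controls 86.9% and 85.3% were in none, and 1.39% and 1.06% in all 3. Counts over all 12 lists are given for the regions alone. Of the 4376 regions, 3318 (75.8%) overlapped none of the 12 lists, 900 (20.6%) overlapped 1 to 5, and 158 (3.61%) overlapped 6 or more, of which 27 overlapped all 12. The 158 had a median total Pol II signal of 1527, against 4863.5 for the 3318 without the mark, and 48.1% of them lay outside genes, against 15.9%. The 1094 regions lowest in Pol II signal had a mean share of 11.1% in p20 controls and 12.8% in adult Dis3 cKO oocytes, where the other 3 sets of 1094 by signal had 1.98 to 3.32% and 1.80 to 2.38%. Among the 158, 105 (66.5%) were in at least 1 Dis3 cKO list of Pol II, against 73.9% of the unmarked regions.

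Regions marked in one group tended to be marked in the others. Of 100 regions in all 3 H3K27me3 lists of p20 controls, 57 were in all 3 lists of p20 dcKO and 20 in none of them. In the adult Dis3 cKO lists 62 of the 100 were in all 3 and 23 in none. In the adult control lists 49 were in all 3 and 3 in none. Of the 61 in all 3 adult control lists, 49 were in all 3 of p20 controls and none was in 0 of them. Beside Il11 at chr7:4776893-4778175, regions in all 12 lists included one of 2172 bp outside genes at chr10:58760141-58762312 and one in Arhgef10, both named after their values had been seen.

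The H3K27me3 share was also set beside the state in the Dis3 cKO Pol II lists. Of the 1164 regions in no such list, 5.78% ± 0.52 (SD, n = 3 lists) overlapped H3K27me3 in p20 controls and 5.96% ± 0.83 in adult Dis3 cKO oocytes. Of the 366 in all 3, the values were 4.83% ± 0.96 and 3.73% ± 0.32. In adult Dis3 cKO lists the 2 sets of 3 values did not overlap, and the difference was not tested, since the groups of regions were formed on the data. Outside genes the mean share ran from 9.17% in p20 controls to 14.8% in p20 dcKO oocytes, against 3.57% and 4.51% inside genes away from starts. Within 1 kb of a start it was 9.68% and 8.17%.

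RNA from single oocytes showed how the genes with regions were expressed. The rRNA-depleted libraries held 8492102 to 35429028 gene counts and the polyA libraries 4843964 to 10310183. All 8 oocyte markers (Zp1 to Zp3, Gdf9, Bmp15, Ddx4, Dazl and Oosp1) averaged at least 1 CPM (the gene's count scaled to the size of its library) in every group, summing to 7554 to 15796 CPM per library. The 4 blood markers summed to at most 3.26 CPM. The counts followed the labels for the targeted genes: Dis3 was at 9.06 to 22.7 CPM in adult control and 0.69 to 3.27 CPM in adult Dis3 cKO libraries, and at 6.21 to 20.04 and 1.67 to 4.18 CPM in p20 control and p20 dcKO libraries. Its polyA levels were 9.50 to 17.1 CPM in controls and 0.67 to 5.62 CPM in Dis3 cKO samples. Exosc10 was at 102 to 136 CPM in p20 control and 3.05 to 14.3 CPM in p20 dcKO libraries, and at 121 to 156 and 102 to 173 CPM in adult control and adult Dis3 cKO libraries. Fold changes are log2 differences from edgeR's quasi-likelihood test, adjusted over all genes tested by Benjamini-Hochberg, with 0.05 as the threshold. The p20 controls and the adult controls each serve in 2 of the comparisons, so those comparisons are not independent. Whether the counts kept the strand is not given in the sources used here, so reads of overlapping genes could not be told apart.

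Protein-coding genes that held adult-absent regions were more often lower than higher in all 4 comparisons. This set was added after most regions had been seen to lie inside genes. The shares of all genes tested, given beside it, also count noncoding genes. The lower share of protein-coding genes alone is given further below for the rRNA-depleted comparisons of mutant with control. Between rRNA-depleted adult Dis3 cKO and control oocytes, 448 of 1704 tested (26.3%) fell and 175 (10.3%) rose, beside 12.4% and 15.7% of all genes tested. The p20 dcKO comparison had 729 of 1719 (42.4%) fall and 372 (21.6%) rise, beside 27.1% and 26.6%. In polyA libraries of adult Dis3 cKO oocytes 284 of 1742 (16.3%) fell and 125 (7.18%) rose, beside 8.33% and 13.6%. In adult controls against p20 controls 277 of 1741 (15.9%) fell and 180 (10.3%) rose, beside 10.4% and 8.69%. The medians of the log2 difference over the set were −0.08, −0.20, −0.09 and −0.02, beside 0.03, −0.0061, 0.04 and −0.0038 over all genes.

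The share of genes with adult-absent regions that fell was above that of all protein-coding genes, with or without shared peaks in the gene. This held in both rRNA-depleted comparisons of mutant with control. In adult Dis3 cKO oocytes 22.7% of genes with adult-absent regions and no shared peak fell, 29.5% of genes with both kinds, 18.6% of genes with shared peaks alone and 14.2% of all protein-coding genes. With 3 or more regions it was 34.8%. For p20 dcKO oocytes the same shares were 39.5%, 45.0%, 33.3% and 28.8%, with 49.7% for 3 or more regions. Whether the genes' regions were in the Dis3 cKO lists was not tested against the RNA: 30.1% of genes with a region in all 3 lists fell in adult Dis3 cKO oocytes, and 23.3% of genes with none in any list. The genes with regions had longer spans than other genes. Their RNA was also more abundant, with a median of 62.4 CPM in p20 controls against 1.79 CPM over all protein-coding genes. The part of gene length and of RNA level in these shares was not tested.

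**Figure D4:**
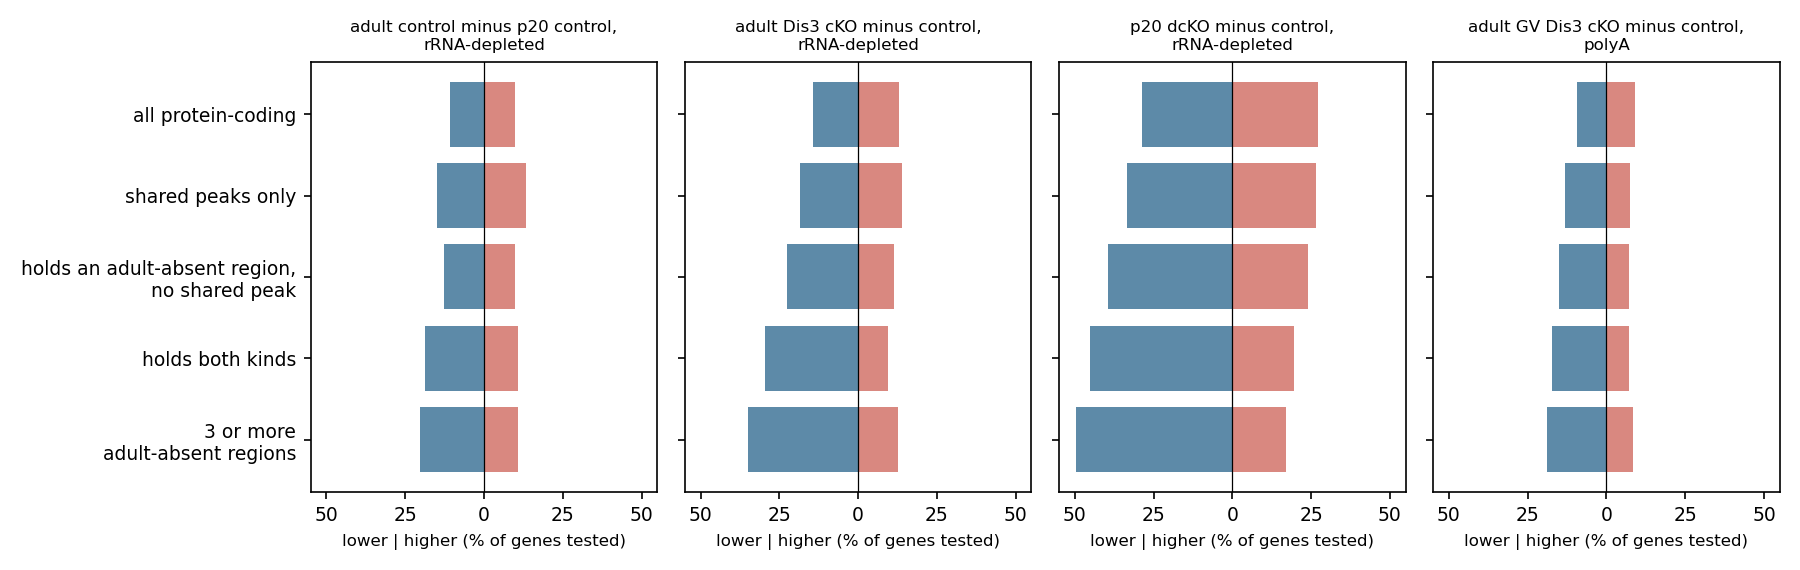
Percentage of tested protein-coding genes that were lower (blue, to the left) or higher (red, to the right) at an adjusted p under 0.05 in 4 comparisons of RNA, for all protein-coding genes and for genes by the Pol II peaks they hold. In adult Dis3 cKO oocytes the lower share goes from 14.2% of all protein-coding genes to 34.8% of genes with 3 or more adult-absent regions.

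The adult rRNA-depleted counts carry a limit. The 8 libraries of each group stand under 2 tags in their titles. The labels do not say what a tag is, and if it names an animal, each adult group holds 2 animals and the p-values over 8 libraries are too small. With counts summed per tag edgeR called 0 of 20190 genes in adult Dis3 cKO oocytes, where 3577 had an unadjusted p under 0.05. Over the single libraries 30 start genes and 623 genes holding regions were called, by DESeq2 too in 30 and 617 cases. In adult against p20 controls 28 of 457 calls among genes holding regions were kept, and in p20 dcKO oocytes 809 of 1101. Scaling to the ERCC spike-in RNA moved the median log2 difference of all genes from −0.0038 to −1.69 for adult against p20 controls, from 0.03 to −0.52 for adult Dis3 cKO oocytes and from 0.04 to −0.23 in polyA libraries, so a direction here is relative to the other genes. Age and the set of libraries cannot be told apart in the first of these.

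Markers of granulosa and cumulus cells, which surround the oocyte, had lower summed levels in p20 dcKO than in p20 control libraries, with no overlap. Their 10 genes summed to 60.8 to 68.6 CPM in p20 controls and 21.3 to 42.9 CPM in p20 dcKO oocytes, and to 36.6 to 66.4 and 22.3 to 55.8 CPM in adult controls and adult Dis3 cKO oocytes. In polyA libraries they summed to 53.95 to 126 CPM in controls and 27.5 to 104 CPM in Dis3 cKO samples. The 7 theca and stroma markers summed to 0.59 to 3.52 CPM in polyA controls and 0.41 to 25.1 CPM in polyA Dis3 cKO samples, with medians of 2.60 and 6.21 CPM, and to at most 7.98 CPM in the rRNA-depleted libraries. None of the 10 granulosa and cumulus genes held an adult-absent region, and their part in the results was not tested.

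Relative to the other genes, genes with a region at their start were not more often lower than higher in any of the 4 comparisons. With ERCC scaling this turned: more of them were lower than higher in adult against p20 controls and in adult Dis3 cKO oocytes. Of 131 such genes with counts, 100 were tested in adult Dis3 cKO oocytes, with 16 higher and 14 lower, beside 15.7% and 12.4% of all genes. In the polyA libraries 113 were tested, with 17 higher and 8 lower, beside 13.6% and 8.33%. These shares lie near those of all genes. In adult against p20 controls 14 of 112 rose and 14 fell, beside 8.69% and 10.4%. In p20 dcKO oocytes 47 of 106 (44.3%) rose and 15 (14.2%) fell, beside 26.6% and 27.1% of all genes, and the median was 0.28. These genes passed a filter on low counts, and the other 25 of the 131 have no call there.

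Srrt rose in each comparison of mutant with control. In p20 controls its lowest, median and highest library were at 36.9, 39.9 and 47.4 CPM, and in p20 dcKO oocytes at 88.5, 104 and 132 CPM, a log2 difference of 1.42 ± 0.10 (SE, adjusted p = 7.98e-13, edgeR). In adult controls they were at 28.9, 34.2 and 48.9 CPM and in adult Dis3 cKO oocytes at 71.3, 146 and 176 CPM, a difference of 1.85 ± 0.20 (adjusted p = 3.88e-06, edgeR). No control library reached the lowest mutant library in either age. The 4 adult Dis3 cKO libraries of one title tag were at 170.2 to 176 CPM and the 4 of the other at 71.3 to 121 CPM, and with counts summed per tag the difference was 1.79 (adjusted p = 0.125, edgeR). In polyA libraries it was 1.79 ± 0.21 higher (adjusted p = 1.77e-10, edgeR), and between adult and p20 controls the difference was −0.14 ± 0.14 (adjusted p = 0.53, edgeR). Its start region in p20 controls lay almost wholly upstream of the gene, over the bases shown above.

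Gm39465, a lncRNA gene that overlaps Gm39464, rose with it. Its start region lay at chr9:122050605-122050963, with a total signal of 2678, and was in the list of Dis3 cKO 1. Another region inside the gene, at chr9:122041371-122042055 with a total signal of 3202, was in no Dis3 cKO list. Its median was 0.49 CPM in adult controls and 6.41 CPM in adult Dis3 cKO oocytes, with 1.06 as the highest control and 1.97 as the lowest mutant library, a log2 difference of 4.34 ± 0.64 (adjusted p = 7.28e-05, edgeR). In polyA libraries the difference was 3.56 ± 0.31 (adjusted p = 5.52e-15, edgeR). Among start genes with a mean of at least 5 CPM in a group, the others that rose most in adult Dis3 cKO oocytes were Gm44700 (log2 difference 1.96), Tomt (1.34) and Igfals (1.07).

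Start genes that fell in adult Dis3 cKO oocytes included Polr2j and Sin3a. Polr2j was at 42.0, 53.9 and 56.5 CPM in adult controls and at 25.05, 28.4 and 36.1 CPM in Dis3 cKO libraries (lowest, median and highest), a difference of −0.79 ± 0.10 (adjusted p = 1.38e-05, edgeR). The groups did not overlap. Its difference in p20 dcKO oocytes was 0.18 ± 0.12 (adjusted p = 0.20, edgeR). Sin3a, the scaffold of a histone deacetylase complex, had a region of 6862 total signal at chr9:57077065-57077528. The gene spans chr9:57071991-57128368, so this region was at a start inside Sin3a. Its RNA, a gene that overlaps 2700012I20Rik, went from 1089, 1219 and 1333 CPM to 540, 801 and 862 CPM, −0.64 ± 0.09 (adjusted p = 3.54e-05, edgeR), and fell in polyA libraries by 0.87 on the log2 scale (adjusted p = 8.06e-09, edgeR). The 5 start genes that fell most were 1700017B05Rik (−0.95), Dop1b (−0.91), Ptma (−0.86), Cox6b2 (−0.83) and Add2 (−0.81).

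Wdtc1, whose promoter is shown above, fell in both rRNA-depleted comparisons of mutant with control. It went from 442, 465 and 510 CPM in adult controls to 244, 268 and 359 CPM in Dis3 cKO oocytes, −0.72 ± 0.07 (adjusted p = 1.58e-06, edgeR). In p20 it went from a median of 497 to 328 CPM, −0.55 ± 0.12 (adjusted p = 0.000193, edgeR), and here the highest dcKO library, at 414 CPM, lay just under the lowest control, at 419 CPM. In polyA libraries its difference was −0.16 ± 0.14 (adjusted p = 0.46, edgeR). The p20 dcKO libraries of the first title tag were at 238 to 313 CPM and those of the second at 343 to 414 CPM. The adult Dis3 cKO libraries of one tag were at 244 to 265 CPM and those of the other at 272 to 359 CPM.

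In p20 dcKO oocytes Dck had the largest increase among start genes with a mean of at least 5 CPM in a group. Below that level, Gm10840 was at 0.058 CPM or less in p20 controls and at 0.53 to 3.75 CPM in dcKO oocytes. It passed the filter on low counts of the joint p20 fit, which these control levels alone would not pass. Dck, which encodes deoxycytidine kinase, was at 0.64, 1.55 and 3.75 CPM in controls and at 3.27, 14.4 and 19.7 CPM in dcKO oocytes, 2.98 ± 0.40 (adjusted p = 1.72e-07, edgeR), and 1 control library lay above the lowest dcKO library. The 4 dcKO libraries of the first title tag were at 16.0 to 19.7 CPM and those of the second at 3.27 to 12.9 CPM. Zfp651 (2.33), Yrdc (1.91), Asb1 (1.74) and Rtl6 (1.68) followed, and Brat1, whose promoter is shown above, rose by 1.63 (adjusted p = 1.80e-06, edgeR). Stxbp6 fell most, from a median of 88.8 to 33.4 CPM and by 1.26 on the log2 scale (adjusted p = 2.61e-06, edgeR), ahead of Trh (−1.22), Taf6l (−0.88), Gm15691 (−0.83) and Pstpip1 (−0.79).

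Kctd21 and Tspan3 had calls of both signs across the comparisons. Kctd21, which overlaps Usp35, rose in p20 dcKO oocytes by 1.24 ± 0.23 (adjusted p = 2.67e-05, edgeR) and fell in polyA libraries of Dis3 cKO oocytes, from a median of 16.4 to 3.23 CPM and by 2.20 (adjusted p = 7.41e-06, edgeR). It was higher in adult than in p20 controls, by 0.95 ± 0.23 (adjusted p = 0.0020, edgeR). In rRNA-depleted adult Dis3 cKO libraries its difference was −0.11 ± 0.23 (adjusted p = 0.75, edgeR), and the comparisons that gave the calls differ in library type, age and genotype. Tspan3 was lower in adult than in p20 controls, with medians of 32.9 and 79.4 CPM and a difference of −1.21 ± 0.24 (adjusted p = 0.000314, edgeR), and higher in p20 dcKO oocytes, with a median of 217 CPM and a difference of 1.48 ± 0.20 (adjusted p = 1.90e-07, edgeR). The 5 start genes that fell most in polyA libraries were Kctd21, Sin3a, Eif3g (−0.77), 1700017B05Rik (−0.74) and Ung (−0.70), the uracil glycosylase gene. Beside Gm39465 and Srrt, Gm32743 (1.18), E530011L22Rik (0.99) and Pld6 (0.93) rose most.

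Between adult and p20 controls, start genes with a mean of at least 5 CPM in one of these groups that were higher in adults were led by Ptma (1.20), Gm15691 (1.11), Rccd1 (0.75), Rps25 (0.57) and Tcl1b4 (0.51). Rps25, the ribosomal protein gene, had medians of 8.72 CPM in p20 and 12.7 CPM in adult controls (0.57 ± 0.19, adjusted p = 0.0259, edgeR). Those lower in adults were led by Usp35 (−1.83), Tspan3, Rtl6 (−1.001), Yrdc (−0.98) and Brat1 (−0.93). With ERCC scaling all 5 of the higher genes had the opposite sign. With counts summed per title tag, all of the genes named here lost the call, and without a filter Rps25 and Yrdc did.

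The 10 genes holding most regions moved both ways in the mutants. In adult Dis3 cKO oocytes 3 of them fell and 3 rose, beside 12.4% and 15.7% of all genes, and in p20 dcKO oocytes 6 fell and 2 rose, beside 27.1% and 26.6%. In polyA libraries 2 fell and 2 rose, beside 8.33% and 13.6%, and between adult and p20 controls 3 fell and none rose, beside 10.4% and 8.69%. Myrip went from 109, 126 and 132 CPM in adult controls to 61.4, 76.4 and 93.5 CPM in adult Dis3 cKO oocytes, −0.67 ± 0.09 (adjusted p = 1.69e-05, edgeR). In p20 it went from 102, 135 and 163 CPM to 21.7, 32.8 and 53.3 CPM, −1.86 ± 0.16 (adjusted p = 1.99e-11, edgeR), and in polyA libraries it fell by 1.14 (adjusted p = 4.08e-08, edgeR). In none of the 3 comparisons did mutant and control libraries overlap. Between adult and p20 controls, its RNA differed by −0.09 ± 0.14 (adjusted p = 0.715, edgeR).

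Sned1 was lower in adult than in p20 controls. It was at 26.0, 34.4 and 41.8 CPM in p20 controls and at 11.3, 13.9 and 16.7 CPM in adult controls, −1.27 ± 0.16 (adjusted p = 4.50e-08, edgeR), with no overlap. Adult Dis3 cKO oocytes, whose lists held most of its regions, had 8.09, 10.5 and 19.8 CPM, a difference from adult controls of −0.24 ± 0.17 (adjusted p = 0.328, edgeR). In p20 dcKO oocytes it was at 10.6, 16.9 and 22.6 CPM and fell by 0.93 (adjusted p = 4.67e-06, edgeR). Zfp469 likewise was lower in adult than in p20 controls, by 1.44 on the log2 scale (adjusted p = 1.84e-05, edgeR), and it was higher in adult Dis3 cKO than in adult controls, 0.89 ± 0.24 (adjusted p = 0.0097, edgeR).

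Prom1 fell in p20 dcKO oocytes, from a median of 59.995 to 33.3 CPM and by 0.91 (adjusted p = 1.01e-06, edgeR), and its difference in adult Dis3 cKO oocytes was 0.09 ± 0.11 (adjusted p = 0.60, edgeR). Shb, which encodes a signalling adaptor, rose in all 3 comparisons of mutant with control, by 0.26 in adult, 0.47 in p20 and 0.50 in polyA libraries.

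**Figure D5:**
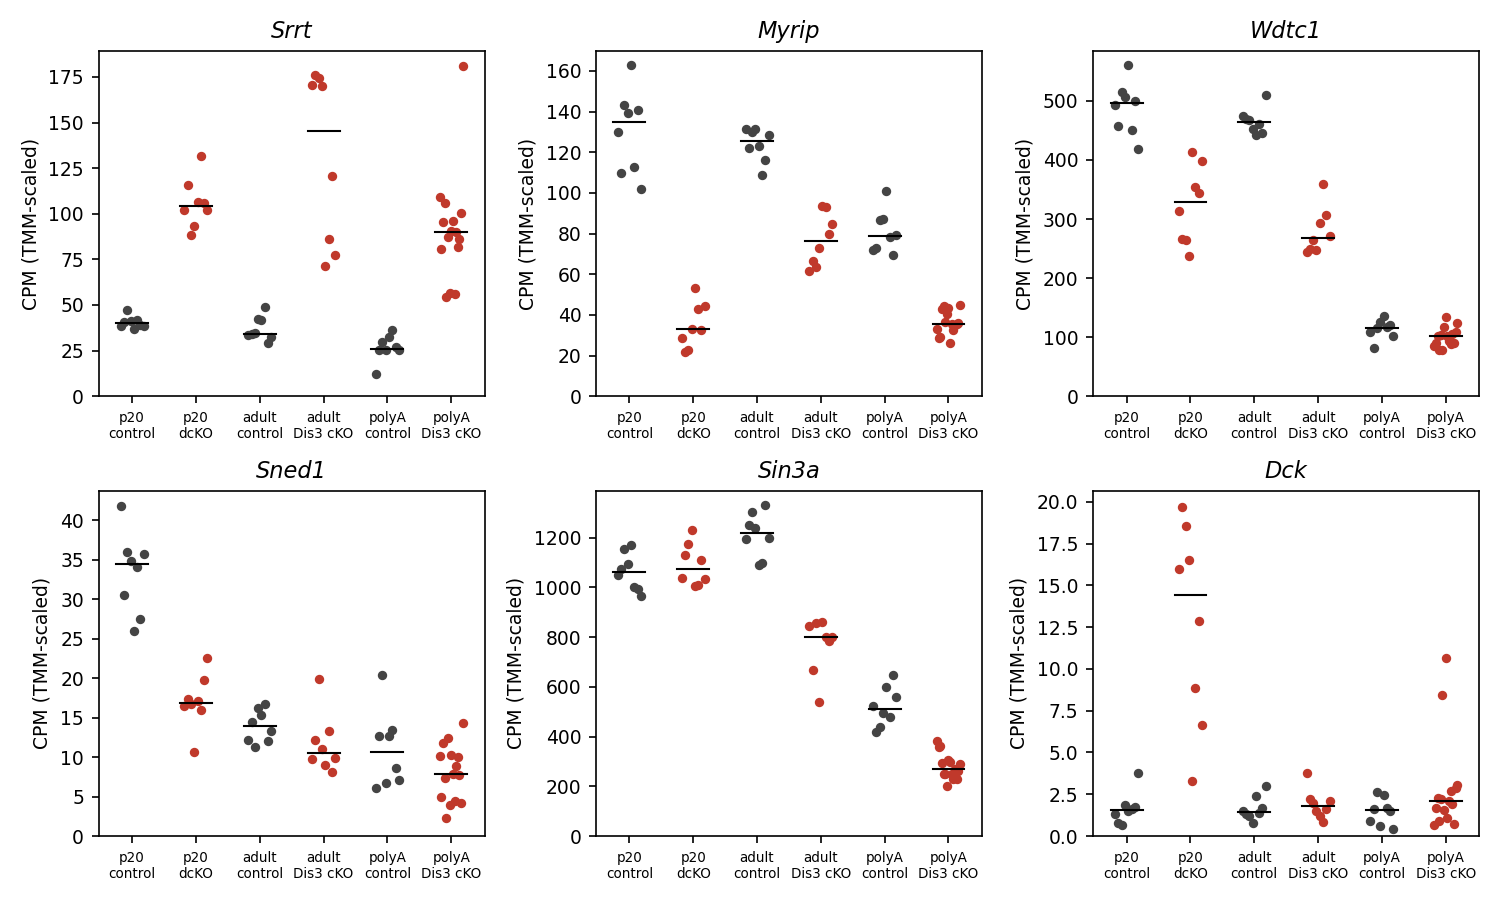
RNA level in CPM, scaled by edgeR's TMM method, of 6 genes with adult-absent regions, with 1 point per library and a line at the median of each group; control groups are dark grey and mutant groups red. Srrt is above and Myrip below its control in all 3 pairs, and Sned1 is highest in p20 controls.

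Most genes whose regions carried H3K27me3 were under the filter on low counts. Of 79 protein-coding genes with a region in 6 or more of the 12 H3K27me3 lists, 32 passed the filter on low counts in the adult Dis3 cKO comparison, against 1704 of 1872 genes that held any adult-absent region. Among the 34 tested in p20 dcKO oocytes 14 fell and 4 rose, beside 27.1% and 26.6% of all genes and 42.4% and 21.6% of the genes holding any region.

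The gene lists around the regions had calls in both directions, to be read against 12.4% lower and 15.7% higher of all genes in adult Dis3 cKO oocytes and 27.1% and 26.6% in p20 dcKO oocytes. No list was tested against these shares, and several counts lie near them. In adult Dis3 cKO oocytes 7 of 9 genes of the subcortical maternal complex fell and none rose, 3 of 18 Polycomb genes fell and 2 rose, 6 of 24 genes of Pol II transcription fell and 1 rose, and 2 of 17 exosome genes fell and 1 rose. In p20 dcKO oocytes 3 of 9 genes of the maternal complex fell and 2 rose, 9 of 18 Polycomb genes fell and 3 rose, 10 of 24 genes of Pol II transcription fell and 7 rose, and 8 of 17 exosome genes fell and 3 rose. The exosome list includes both targeted genes, Exosc10 and Dis3. In p20 dcKO oocytes their log2 differences were −4.01 and −2.25, and Dis3 had −3.13 in adult Dis3 cKO oocytes. The genotype itself therefore set part of the exosome count in each of these comparisons. Of the H3K27me3-imprinted genes 6 of 7 tested rose there and none fell, and 1 of 4 tested rose and none fell in adult Dis3 cKO oocytes. Of the zona and oocyte-secreted genes 5 of 11 fell in each of these comparisons, and 1 rose in adult Dis3 cKO and 3 in p20 dcKO oocytes. Of 11 oocyte transcription factors tested, 2 fell and 2 rose in adult Dis3 cKO oocytes, and 6 fell and 3 rose in p20 dcKO oocytes. Of the ribosomal protein genes 4 of 73 rose and 4 fell in adult Dis3 cKO oocytes, and 10 of 74 rose and 6 fell in p20 dcKO oocytes. Of the developmental targets of Polycomb 1 of 12 fell and 1 rose in the first, and 4 of 16 fell and 1 rose in the second.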

How the data were processed

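Pol II and H3K27me3 were profiled by CUT&Tag and RNA by single-oocyte sequencing. Per the labels, reads of each CUT&Tag library were sampled to 3000000 without removing duplicates; the number of distinct fragments is not given in the sources used here. The submitters' processing notes name mm10, cutadapt 2.5, FastQC 0.11.8, STAR 2.7.2a, SAMtools 1.9, HTSeq 0.9.1, SEACR, R 3.5.1 and DESeq2 1.24.0. The deposited peak lists, 1 per sample, give the authors' total signal and maximum signal of each peak. The deposited RNA tables hold raw gene counts made by the authors. Lists of the IgG group were not analysed here.

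Overlaps of 1 bp were counted with Python 3.11.15 on the deposited coordinates. Genes and promoters were from RefSeq GRCm38.p6, the build of mm10. Shares were compared by exact permutation over lists. Counts were tested with edgeR 4.0.16 (TMM, quasi-likelihood, filterByExpr, Benjamini-Hochberg), with DESeq2 1.42.0 as an alternative. Adult against p20 controls were read from a joint fit of all rRNA-depleted groups. The p20 dcKO comparison came from a joint fit of all p20 groups, with the dis3cKO and exo10cKO groups. The polyA comparison came from a joint fit of all polyA groups, with GV3h and MII. Adult Dis3 cKO and control had a fit of their own. The filter, scaling and spread of a fit rest on all its groups. The overlap code and the edgeR fit were tested on simulated data. Other alternatives were another overlap, equal list lengths, a common signal floor, other start windows, no filter, ERCC scaling, summed tags, a replicate block and leaving out lists.

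The members and gene lists were chosen with earlier results of these data known. Named regions are the 10 strongest at protein-coding starts, the 5 strongest elsewhere and the 5 widest. Named genes are, per comparison, the 5 start genes that rose and the 5 that fell most past the threshold with a mean of at least 5 CPM in a group, and list genes with a region at their start. The 10 genes holding most regions and the regions in 12 H3K27me3 lists were added after the values were seen. Some items that these rules choose are not reported here.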

Additional observations from a re-analysis of the deposited data

Results flagged for a closer look

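Levels per library were checked in 93 groups of 8 libraries for 19 genes with adult-absent regions. In 9 of these groups the value of a single library stood far from the rest, where chance gives about 1 in 20 such groups. Srrt was at 47.4 CPM in 1 p20 control library, where the next was at 41.9 CPM, and at 12.1 CPM in 1 polyA control, where the next was at 25.1 CPM. Dop1b was at 186 CPM in 1 p20 dcKO library. Dck was at 3.78 CPM in 1 adult Dis3 cKO library and at 3.75 CPM in 1 p20 control. Kctd21 was at 7.70 CPM in 1 adult Dis3 cKO library and Sned1 at 19.8 CPM in the same one. Ptma was at 5.99 CPM in 1 adult Dis3 cKO library and at 10.3 CPM in 1 polyA control.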

How the results depend on the processing

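Of 217 alternatives for the main results, 148 kept direction and side of the threshold (counts within 1.5 times). For the others the cause was not tested, unless the setting leaves fewer peaks or samples by construction. The regions numbered 2601 with 50% of the peak covered, 2203 with peaks at or above each list's median, 2034 with the common floor, and 5191 to 11571 with 1 control list left out (11571 and 10804 without p20 control 2 or 3). The left-out control held 11.3% with 50% covered and 12.2% at the centre of the maximum, where Dis3 cKO 1, 2 and 3 held means of 28.9%, 11.8% and 33.5%, then 29.2%, 12.7% and 34.4%. With 1 list left out the H3K27me3 differences ran from −1.44 to 2.27 points (adult minus p20 controls) and from −2.38 to 1.33 points (Dis3 cKO minus adult controls), the values of −1.44 and 1.33 being those reversed without adult control 2. Regions minus shared peaks gave −1.13 points with both sets above the common floor, −2.29 points against peaks shared with all 3 adult controls, 0.029 points at equal length, and 0.631 to 1.01 points with 1 list left out, where 10 of 12 lost the call.

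In the RNA counts, given as higher and lower, ERCC scaling gave 0 and 105 start genes and 2 and 1678 genes holding regions for adult against p20 controls. It gave 3 and 32, then 13 and 987, in adult Dis3 cKO oocytes. It gave 9 lower start genes and 214 higher genes holding regions in p20 dcKO oocytes, and 5 and 28 higher in polyA libraries. Summed tags gave 0 and 1, then 2 and 26, for adult against p20 controls, and 0 throughout in adult Dis3 cKO oocytes. The common floor gave 8 lower start genes, and 107 and 171 genes holding regions, for adult against p20 controls. It gave 109 and 295 genes holding regions in adult Dis3 cKO oocytes, 30 and 7, then 228 and 428, in p20 dcKO oocytes, and 4 lower, then 73 and 179, in polyA libraries. A window of 250 bp gave 7 and 8, 8 lower, 28 and 6, and 9 and 5 start genes in the same order, and one of 5000 bp gave 34 and 33, 58 and 59, 123 and 85, and 55 and 37. With tags summed, all 10 start genes named for adult Dis3 cKO oocytes lost the call, as did all 10 named for adult against p20 controls, and Pstpip1 in p20 dcKO oocytes. ERCC scaling ended the calls of Igfals and Tomt in adult Dis3 cKO oocytes, of Gm15691 and Trh in p20 dcKO oocytes, and of E530011L22Rik, Gm32743 and Pld6 in polyA libraries. Without a filter those of Rps25 and Yrdc (adult against p20 controls) and Trh ended. Of 170 values for single genes 134 were kept, 31 lost the call as listed and 5 reversed with ERCC scaling between adult and p20 controls: Gm15691 (−0.57), Ptma (−0.52), Rccd1 (−0.95), Rps25 (−1.15) and Tcl1b4 (−1.19).

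With a replicate block, the p20 dcKO counts were 44 and 17 start genes and 359 and 725 genes holding regions, the polyA counts 20 and 10, then 111 and 301, and the H3K27me3 difference of p20 dcKO 1.897 points (exact permutation p = 0.25). Same-numbered libraries correlated at −0.43 to 0.27 in p20 and at −0.15 to 0.19 in polyA libraries in their deviations, with pairs under 0.1 in both, so the numbers were not taken to pair the samples.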
